A study of Homo sapiens with 2 samples.

Results

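The proteasome genes were taken as the genes whose symbols on the promoter arrays begin with PSMA, PSMB, PSMC, PSMD, PSME or PSMF followed by a number, which gave 43 of the 17280 genes named on the arrays. The symbol rule could also take PSMG assembly factors, and the arrays named none. Chromatin of Meg-01, a human megakaryocytic leukemia cell line, had been cross-linked in untreated cells and precipitated with a GATA1 antibody (C-20) or with normal goat IgG. The GATA1 precipitate (IP) was labelled with Cy5 and the IgG precipitate with Cy3, and both were hybridized together to chIP1 and chIP2, which are 2 arrays of one promoter set with different probes. Each probe was therefore read in 1 hybridisation, without a dye swap, so no value below has a replicate error and no test between conditions was possible. An effect of the dye and an effect of the antibody cannot be told apart. The arrays measured DNA fragments, so the identity of the cells could not be checked against expressed markers.

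GATA1 is a zinc finger transcription factor of erythroid and megakaryocytic cells that binds WGATAR sequences, where W is A or T and R is A or G. The proteasome is the protease complex that degrades ubiquitin-tagged proteins in the cytosol and nucleus of all cells. Its barrel-shaped core particle is built of rings of alpha (PSMA) and beta (PSMB) subunits, the latter carrying the protease sites. The regulatory particle on the ends of the barrel unfolds substrates with a ring of ATPases (PSMC) and receives and deubiquitinates them with non-ATPase subunits (PSMD). Alternative caps are made of activators (PSME), and PSMF1 is an inhibitor of the core particle. Proteasome genes are housekeeping genes whose joint induction after proteasome inhibition depends on NFE2L1, a factor that binds antioxidant response elements.

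The start regions of the genes are introduced first through their sequences, because a WGATAR match is the letter pattern that the precipitated factor reads. RefSeq promoters (GRCh38.p14) were found for 38 of the 43 genes, and PSMA7, PSMD4, PSMB1, PSMB6 and PSMB7 were not matched. In the 250 bases before the RefSeq start, WGATAR occurred on either strand in 4 of the 38 promoters (10.5%), against 22.9% of all 27305 RefSeq promoters and 17.3% of the 9717 promoters of genes with start windows on the arrays. The 4 genes were PSMA6, PSMB3, PSMC1 and PSMC6. Their matches are shown on the strand that reads WGATAR, 5′ to 3′, with the match in capitals and 10 bases on each side.
PSMA6, chromosome 14, first base 208 bases before the start: taggtcacacTGATAGgcaaatcgct
PSMB3, chromosome 17, 20 bases before the start: cttcattggcTGATAGgcggactctt
PSMC1, chromosome 14, 52 bases before the start: ctacggaagcTGATAGgaaccaaatt
PSMC6, chromosome 14, 217 bases before the start: ttgcaagccgAGATAGgtaaagcagg

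TGACNNNGC, the letters shared by antioxidant response elements, occurred on either strand in 9 of the 38 promoters (23.7%), against 11.0% of all RefSeq promoters and 11.7% of those of array genes. It was present before PSMB3, PSMB9, PSMD3, PSMD5, PSMD9, PSMD12, PSME1, PSME2 and PSME4. The matches of PSMB3, PSMD5 and PSMD9 are shown because these genes also had some of the highest values at their starts, and that of PSME4 because it had one of the lower ones.
PSMB3, chromosome 17, 104 bases before the start: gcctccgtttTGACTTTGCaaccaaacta
PSMD5, chromosome 9, 134 bases before the start: tggctacagtTGACACGGCcctaacggag
PSMD9, chromosome 12, 149 bases before the start: gcgcctgtggTGACCCGGCaggagtagcg
PSMD9, chromosome 12, 102 bases before the start: cggcttccggTGACCCAGCtccgccctaa
PSME4, chromosome 2, 34 bases before the start: gctctgctggTGACGCTGCagccgccggg

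CCAAT was found in 16 of the 38 promoters (42.1%; 34.8% of array genes), GGGCGG in 23 (60.5%; 58.3%) and TATAAA in 5 (13.2%; 8.84%), each searched on both strands. A match is a description of letters only, and a promoter without one may hold the factor elsewhere. PSMB3 and PSMB4, genes of beta subunits with high values at their starts, are shown whole on their coding strand because one has a WGATAR match and the other has none. Capitals mark the match, which reads as its reverse complement here.
PSMB3, GRCh38.p14, chr17:38752491-38752740, + strand: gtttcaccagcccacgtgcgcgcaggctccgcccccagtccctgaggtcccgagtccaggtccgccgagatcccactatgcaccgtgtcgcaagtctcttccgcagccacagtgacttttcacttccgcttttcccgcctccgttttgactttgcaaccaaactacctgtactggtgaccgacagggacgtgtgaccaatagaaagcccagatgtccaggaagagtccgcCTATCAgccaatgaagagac
PSMB4, GRCh38.p14, chr1:151399323-151399572, + strand, no match: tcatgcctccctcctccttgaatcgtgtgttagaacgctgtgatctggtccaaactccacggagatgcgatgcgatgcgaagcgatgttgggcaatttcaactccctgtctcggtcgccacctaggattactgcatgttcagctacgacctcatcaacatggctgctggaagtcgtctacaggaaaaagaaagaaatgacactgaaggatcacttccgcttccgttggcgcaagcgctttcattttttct

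Probe values are log2 of the processed IP signal over the processed IgG signal, shifted so that each array has a median of 0. A window is the mean of 3 adjacent probes, and a window at or above 1, which is 2-fold, is called IP-side, while one at or below -1 is called IgG-side. The start value of a gene is the mean of its windows whose centre probe lay within 500 bp of the annotated start. The 43 genes were covered by 1058 probes and 922 windows, with 14 to 45 probes and 2 to 8 start windows per gene, on 16 chromosomes. 16 genes lay on chIP1 and 27 on chIP2. The 480 spots of one control probe varied with SDs of 0.048 (chIP1) and 0.044 (chIP2). Single promoter probes had SDs of 0.97 on both arrays, and windows 0.77 and 0.76. The control probe covers the spot noise of that probe only. It does not measure the noise of dim probes or of the precipitation and amplification.

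Over the whole tiled regions, the shares of proteasome genes with a call were close to the background in the signals as deposited, and less so after background correction. Of the 43 genes, 26 (60.5%) had at least 1 IP-side window, against 57.1% of all 17054 genes with a window and 56.5% of genes with a similar number of windows. At least 1 IgG-side window was found in 24 (55.8%), against 52.9% of all genes and 53.3% of those with a similar number of windows. Both kinds occurred in 15 genes, against 31.3% of all genes, and neither in 8, against 21.3%. The median of the highest window was 1.07, compared with 1.09 for all genes, and that of the lowest window was -1.10, compared with -1.05. After normexp background correction, 23 of the 43 genes (53.5%) had an IP-side window, against 33.1% of all genes, and 14 (32.6%) an IgG-side one, against 23.9%. The median highest window was then 1.02, compared with 0.83 for all genes. How far the IP-side share lay above the background thus depended on this correction.

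At the annotated start the values differed more from those of other genes. The median start value was 0.55 (interquartile range 0.33 to 0.85) over the 43 genes and 0.28 (-0.01 to 0.58) over all 16445 genes with a start window. The start value was above 0 in 41 of the 43 genes, against 74.3% of all genes. An IP-side start window was found in 18 genes (41.9%), against 24.6% of all genes. After normexp background correction it was again 18, against 17.4% of all genes. No proteasome gene had an IgG-side start window, against 9.33% of all genes. Of the 221 probes within 500 bp of these starts, 184 were above 0, 55 were at or above 1 and 2 were at or below -1. Both of those 2 probes belonged to PSMC2. Probes were not counted in this way over all genes, so these probe counts have no background beside them. The median start value was 0.51 for the genes on chIP1 (all genes of that array, 0.31) and 0.57 on chIP2 (0.25), so both arrays showed the higher level.

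**Figure D1:**
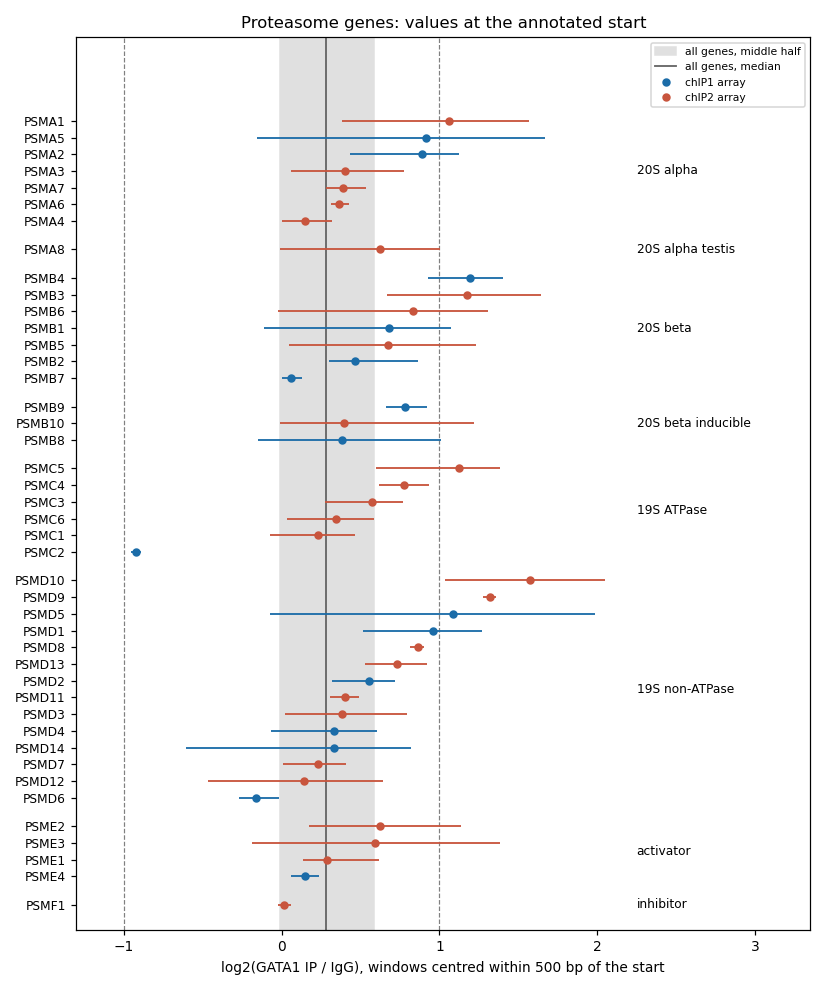
Start value of each of the 43 proteasome genes (x axis, log2 of IP over IgG; points) with the range of its start windows (lines), grouped by role (20S, core particle; 19S, regulatory particle) and coloured by array. The grey band is the interquartile range and the grey line the median of all genes (0.28), and dashed lines mark 2-fold; 41 genes lie above 0 and PSMC2, at -0.92, lies farthest below.

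The start windows of the proteasome genes were also bright. Their median intensity, as the percentile of the mean log signal of both channels among the windows of the array, was 87.1, compared with 63.5 for all genes, and the start value of all genes rose with intensity. In the steps of 10 percentiles, the all-gene median went from -0.18 in the dimmest step to 0.52 in the brightest. The brightest step held 18 of the 43 proteasome genes, with a median start value of 0.63. Among 3510 genes whose start intensity lay in the interquartile range of the proteasome genes, the median start value was 0.41, with 86.2% above 0, 27.0% with an IP-side start window and 1.37% with an IgG-side one. Set against the all-gene median of their own intensity step, 26 of the 43 proteasome genes lay above it, with a median difference of 0.10. After a loess correction on intensity the median start value was 0.44, against 0.26 for all genes, with an IP-side start window in 16 proteasome genes, against 23.5% of all genes. The part of intensity in the start values was not tested further.

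**Figure D2:**
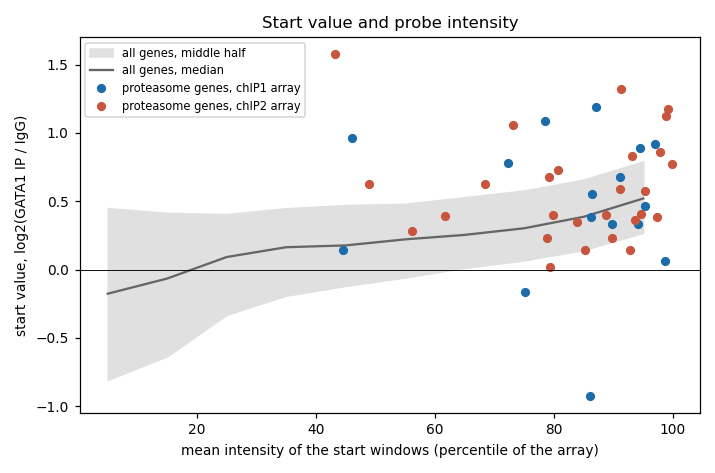
Start value (y axis, log2 of IP over IgG) against the mean intensity of the start windows (x axis, percentile of the array) for the 43 proteasome genes, with the median (line) and interquartile range (band) of all genes in steps of 10 percentiles. Most proteasome genes lie at high intensity, where the all-gene median also rises, to 0.52 in the last step; 26 of the 43 lie above the median of their step.

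The highest mean level lay at the start. Averaged over genes, windows centred up to 500 bp upstream of the start had a mean of 0.65 (SD over genes 0.48, n = 38 genes) and those up to 500 bp downstream 0.50 (SD 0.47, n = 43 genes), against 0.26 and 0.24 for all genes. Between 500 and 1000 bp downstream the mean was 0.17, and between 1500 and 2000 bp it was -0.29. By windows, 41 of the 207 within 500 bp of the start (19.8%) were IP-side and 0 were IgG-side, against 10.5% and 4.08% for all genes. Farther than 2000 bp downstream the relation turned, with 4.32% IP-side and 16.8% IgG-side windows in the proteasome genes, and 6.67% and 11.3% in all genes. The 31 IgG-side windows there came from 11 genes, and a large part of them were overlapping windows of PSMC6 alone. The IgG-side share there thus leaned on 1 gene. Farther than 2000 bp upstream the shares were 9.14% and 12.9%, against 6.69% and 14.3%. Upstream, the mean over proteasome genes was 0.16 from -2000 to -1500 bp, 0.21 from -2500 to -2000 bp, 0.11 from -3000 to -2500 bp and 0.26 from -3500 to -3000 bp (SD over genes 0.64 to 1.00, n = 10 to 14 genes), against -0.12, -0.16, -0.19 and -0.19 for all genes. The distance to all genes was thus of similar size there as at the start, over fewer genes with a wider spread. In these 4 steps the means were 0.33, 0.57, 0.17 and 0.49 for the genes on chIP2 and -0.10, -0.44, 0.04 and -0.02 for those on chIP1, so they were not alike on both arrays. Neighbouring windows share probes and are not independent.

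**Figure D3:**
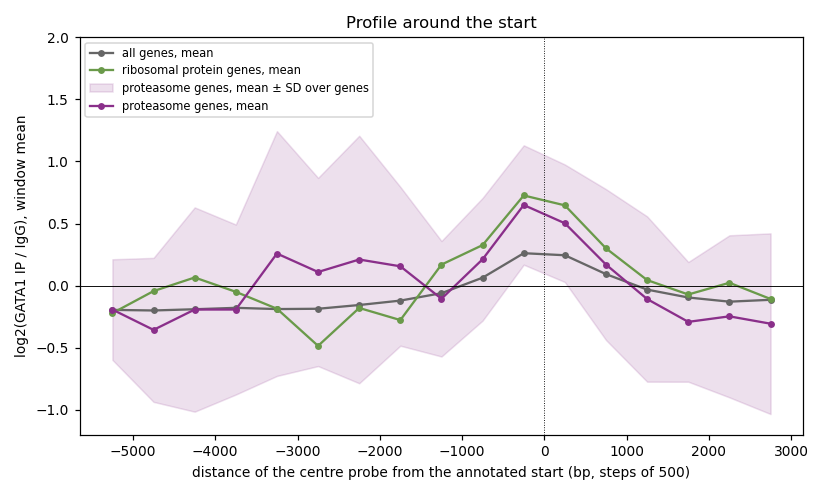
Mean window value (y axis, log2 of IP over IgG) in steps of 500 bp from the annotated start (x axis; negative is upstream) for the proteasome genes, all genes and the cytosolic ribosomal protein genes, with the SD over proteasome genes as a band. The proteasome genes peak at 0.65 just upstream of the start and fall to -0.29 between 1500 and 2000 bp downstream.

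The genes of cytosolic ribosomal proteins, another large set of housekeeping genes, give a comparison. The 76 of them with start windows had a median start value of 0.76, an IP-side start window in 44.7% and an intensity percentile of 95.8. The level at the start was therefore not particular to the proteasome.

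Within the core particle, the genes of the 7 constitutive alpha subunits, which form the outer rings and their gate, had start values from 0.15 to 1.06. PSMA1, PSMA5 and PSMA2 had the highest, at 1.06, 0.92 and 0.89. These 3 of the 7 had an IP-side start window, against 24.6% of all genes. PSMA3, PSMA7, PSMA6 and PSMA4 followed at 0.40, 0.39, 0.36 and 0.15. At PSMA5, the probes at -416, -306, -92, 93, 234 and 447 bp read 0.90, 1.59, 2.10, 1.31, 0.33 and -0.40, so the ratio was highest just upstream of the start and had turned to the IgG side of 0 by the last of these probes. The probe at -92 bp had processed signals of 12388 in the IP and 2900 in the IgG channel, and its window was the highest of PSMA5, at 1.67. PSMA8, the testis form of an alpha subunit, had a start value of 0.62 at an intensity percentile of 48.8.

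PSMA1 has 2 annotated starts on the array about which the probes cluster separately. The start windows of the one at position 14498524 averaged 1.25 and ranged from 0.73 to 1.57 at an intensity percentile of 98.0, while the 2 windows of the other, at 14621740, averaged 0.59 at a percentile of 10.7. The highest window of PSMA1, at 2.05, lay 671 bp downstream of the second start, and its probes had IP signals of 612, 487 and 1036 against IgG signals of 204, 107 and 196. The strongest ratio of this gene was thus read on dim probes and the strongest start on bright ones. PSMB8 has 2 starts as well, with start values of 0.21 and 0.91. The first, with 20 probes, had no start window above 0.51. The second had only 2 probes and 2 windows, and the IP-side start window of PSMB8, at 1.01, was at this start. PSMF1 also has 2 starts, of which the one at position 1041938 had no start window. The start value of PSMF1 came from the 2 windows of the other, at 1047244.

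The beta subunit genes had the largest share of calls among the larger groups. Of the 7 constitutive ones, 6 had an IP-side window and 5 an IP-side start window, against 57.1% and 24.6% of all genes. Their median start value was 0.68. PSMB4 and PSMB3, structural members of the beta rings, led at 1.19 and 1.17, followed by PSMB6, a protease subunit with caspase-like activity, at 0.83. PSMB1, PSMB5, which carries the chymotrypsin-like site, PSMB2 and PSMB7, which carries the trypsin-like site, had 0.68, 0.67, 0.46 and 0.06. At PSMB4, the 4 probes at -97, 12, 130 and 326 bp read 1.73, 1.15, 1.33 and 1.60 and the next, at 539 bp, read -0.13. Its signals in the first of these were 6789 in the IP and 2044 in the IgG channel. At PSMB3, the probes at -266, -146, -38 and 81 bp read 1.05, 1.61, 2.05 and 1.26, and the probe at 352 bp read 0.34. At PSMB7, the 5 probes within 500 bp lay between -0.35 and 0.36, although its start intensity was at the 98.7th percentile. The bright start of PSMB7 thus had no IP excess, while the similarly bright one of PSMB3 (99.2nd percentile) did.

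PSMB3 also had an IP-side cluster inside the gene region, where the probes at 1102, 1274 and 1380 bp downstream read 1.25, 2.34 and 2.95. Their mean, 2.18, was the highest window of PSMB3, at array positions 34163603 to 34163930 of chromosome 17. The IP signals of these probes were 3823, 3442 and 2389 and the IgG signals 1602, 677 and 308. PSMB3 had 8 IP-side and 0 IgG-side windows.

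The inducible beta subunits PSMB8, PSMB9 and PSMB10 replace constitutive ones in the immunoproteasome, which shapes peptides for MHC class I. Their start values were 0.39, 0.78 and 0.40. All 3 had an IP-side window, against 57.1% of all genes, with highest windows of 1.01, 1.04 and 1.64. PSMB8 and PSMB10 had one at the start, against 24.6% of all genes. The IP-side start window of PSMB8 lay just past the threshold, while the start windows of PSMB9, all between 0.66 and 0.92, lay just short of it. After normexp background correction the highest windows were 0.96, 0.88 and 1.54, so only PSMB10 kept an IP-side window. As deposited, all 3 IP-side windows of PSMB10 held the same probe of 2.81. Its start windows without that probe lay between -0.01 and 0.39.

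As deposited, the ATPase genes PSMC1 to PSMC6 had the smallest share of calls among the larger groups. IP-side windows were present in 2 of 6 and an IP-side start window in 1, against 57.1% and 24.6% of all genes. After normexp background correction the highest windows of PSMC3 and PSMC4 rose to 1.01 and 1.12, while those of PSMA6 and PSMA7 fell to 0.75 and 0.88. The ATPase genes then no longer had the smallest share with an IP-side window. PSMC5 had a start value of 1.13, and its 4 start windows ranged from 0.60 to 1.39. PSMC4, PSMC3, PSMC6 and PSMC1 followed at 0.77, 0.57, 0.35 and 0.23. PSMC2 had the lowest start value of the 43 genes, -0.92, from 2 windows of -0.95 and -0.89. Its probes at -123, 130, 338 and 536 bp read -0.40, -1.12, -1.34 and -0.21, and the probe at 338 bp had 2277 in the IP and 5777 in the IgG channel. The IgG excess at the start of PSMC2 was thus read on bright spots, at an intensity percentile of 86.1, and only 2.93% of the genes of its array had a lower start value.

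Among the 14 PSMD genes, start values ranged from -0.16 to 1.58. The 3 highest were PSMD10, PSMD9 and PSMD5 at 1.58, 1.32 and 1.09. Although named as subunits, the products of these 3 genes are known as chaperones that help to assemble the ATPase ring and leave the finished particle. They were singled out after their values were seen. PSMD1, PSMD8 and PSMD13 followed at 0.96, 0.86 and 0.73, and PSMD2, a scaffold of the base, had 0.55. PSMD11, PSMD3, PSMD4, a ubiquitin receptor, and PSMD14, the deubiquitinase of the lid, lay between 0.33 and 0.40. PSMD7 had 0.23, PSMD12 had 0.14, and PSMD6, a lid subunit, had -0.16.

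The value of PSMD10 came largely from 1 probe. Its probes at -42, 208 and 465 bp read 1.31, 3.62 and -0.01, and the middle one had signals of 1678 in the IP and 136 in the IgG channel, with the start windows at the 43.3rd percentile of intensity. The start value of PSMD10 was 1.03 after normexp background correction and 1.05 with 5-probe windows, which put PSMD9 (1.36) first after normexp. PSMD9 had probes of 0.94, 1.36, 1.78 and 0.69 at 12, 133, 233 and 418 bp, all on the IP side of 0 and read at the 91.3rd percentile. PSMD5 had probes of 0.79, 1.00, 2.59, 1.13 and 2.24 at -63, 37, 257, 358 and 468 bp, with -0.72 at -498 bp. The highest window of PSMD10, centred at -42 bp, and that of PSMD9, at 29039 bp downstream, also took in a probe not annotated to them.

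Of the activators, PSME2 and PSME1, which form the interferon-inducible cap, had start values of 0.63 and 0.28, and PSME3, a nuclear activator, and PSME4 had 0.59 and 0.15. PSMF1, the inhibitor, had 0.02, with probes of 0.13, -0.12 and -0.07 at 72, 273 and 600 bp, and no IP-side window. It lay with PSMB7, PSMD6 and PSMC2 at the bottom of the order. With 1 hybridisation, neighbours in the order of start values could not be told apart.

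**Figure D4:**
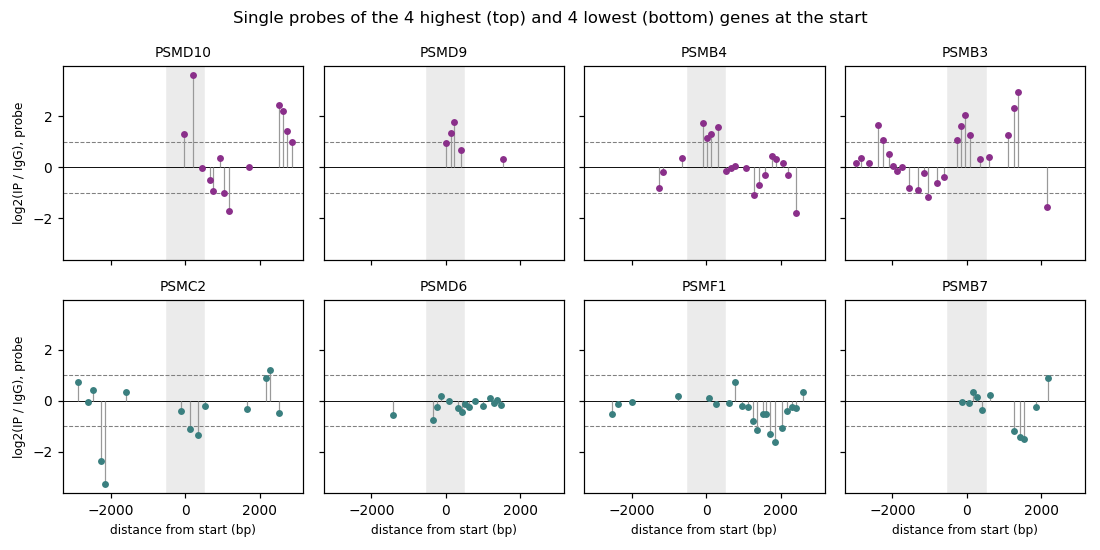
Single probe values (y axis, log2 of IP over IgG) within 3000 bp of the annotated start (x axis) for the 4 proteasome genes with the highest start values (top) and the 4 with the lowest (bottom), with the 500 bp on each side of the start shaded and dashed lines at 2-fold. PSMB4, PSMB3 and PSMD9 show runs of adjacent probes above 0 at the start, PSMD10 rests on a single probe of 3.62, and PSMC2 has 2 probes below -1.

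The highest and lowest windows of the genes often lay away from the start. The highest window was within 500 bp in 19 genes, upstream in 13 and downstream in 11, whereas the lowest was never within 500 bp. These positions were not counted over all genes, in which only 4.08% of the windows within 500 bp were IgG-side. Of the 26 genes with an IP-side window, 18 had one within 500 bp and 8 had one elsewhere only. Over all genes, 9732 had an IP-side window and 4038 had one within 500 bp. The highest window of all was at -2605 bp from the start of PSMD3, at array positions 35387851 to 35388124 of chromosome 17, where adjacent probes read 2.89, 2.56 and 2.75. Their IP signals were 929, 1013 and 1214 and their IgG signals 124, 171 and 179. The next was at -3099 bp from the start of PSME1, at 2.37 and positions 23671975 to 23672360 of chromosome 14, with probes of 3.17, 1.76 and 2.18 and IgG signals of 143, 132 and 93.3. Both distal windows were therefore read with low IgG signals. After normexp background correction, the highest window of PSMD3 was 1.37. Many other genes lay above it, from PSMB3 at 1.87, PSMD5 at 1.78, PSMA5 at 1.77 and PSMA1 at 1.67 down to PSMB2 at 1.39. The highest window of PSME1 was then 0.85, so PSME1 lost its 2-fold call. As deposited, the start values of PSMD3 and PSME1 were 0.38 and 0.28.

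Among the lowest windows, PSMD5 had -1.92 at -2352 bp, PSMA5 -1.90 at 23983 bp downstream and PSMC6 -1.83 at 18105 bp downstream. In the window of PSMA5, the IP signals were 142, 104 and 360 and the IgG signals 770, 488 and 730. PSMB6 had the lowest of all, -1.96 at 1736 bp downstream, with IP signals of 617, 898 and 2180 and IgG signals of 1801, 5659 and 6859, so this one was read on bright probes. After normexp background correction the lowest windows were -1.62 for PSMB6, -1.28 for PSMC6, -1.18 for PSMD5 and -1.07 for PSMA5. PSMD5 held an IP-side window of 2.00 at -2927 bp, a few probes from its IgG-side one, so values of opposite sign lay side by side in one upstream region.

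**Figure D5:**
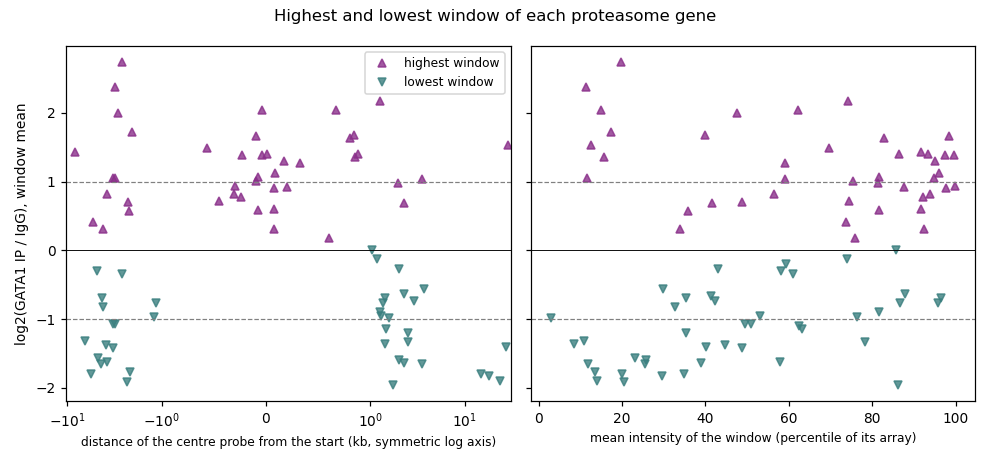
Highest and lowest window of each of the 43 proteasome genes (y axis, log2 of IP over IgG) against distance from the annotated start (left, symmetric log axis in kb; 3 lowest windows centred on a probe of a neighbouring annotation are not drawn) and against intensity (right, percentile of the array). No lowest window lies within 500 bp of a start, a position that was not counted over all genes. The highest window of all, 2.74, lies at -2605 bp from the start of PSMD3.

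On the array, 12 genes had probes labelled as a divergent promoter with a neighbour. Their median start value was 0.70, with an IP-side window in 10 and an IP-side start window in 7. The other 31 had 0.40, 16 and 11. Over all genes the median was 0.28 and the shares were 57.1% and 24.6%. The 12 genes also had more windows, with a median of 23.5 against 19. Divergent promoters of other genes were not counted, so a trait of the proteasome genes cannot be read from this. The partners share promoter probes with the proteasome genes, so the values of a pair need not be separate measurements. How far the start windows coincide differs by pair. PSMC5 and FTSJ3 had the same highest start window, 1.39. The highest start window of PCGF2, 1.16, had the value of a window at -4116 bp from the start of PSMB3, outside the start windows of PSMB3. The start values were 1.58 for PSMD10 and 0.77 for ATG4A, 1.17 for PSMB3 and 0.28 for PCGF2, and 1.13 for PSMC5 and 0.99 for FTSJ3. PSMA2 with MRPL32, a mitochondrial ribosomal protein gene, had 0.89 and 0.60, and PSMB1 with TBP, the TATA-binding protein gene, had 0.68 and 0.72. PSMB9 and TAP1, both of antigen processing, had 0.78 and 0.50. PSMC6 (0.35) lay below ERO1L (0.65), and PSMD12 (0.14) above PITPNC1 (-0.19). In 10 of the 12 pairs the proteasome gene had the higher start value, but pairs of other genes were not counted.

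The start values were also set beside the motifs. The 4 genes with WGATAR in the 250 bases had a median start value of 0.35, ranging from 0.23 to 1.17, with an IP-side start window in 1. The 34 without it had 0.58, with one in 15. Over all genes the share with an IP-side start window was 24.6%. Start values of all array genes were not split by motif, so a difference by WGATAR cannot be read from these counts. Among the 4, PSMB3 was the gene with the IP-side start window, while PSMA6, PSMC6 and PSMC1 had start values of 0.36, 0.35 and 0.23. For TGACNNNGC the medians were 0.63 with the motif and 0.55 without. RefSeq starts can differ from the starts used on the arrays, and the windows reach beyond the bases searched.

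The wider ubiquitin and proteasome pathway was described by a list of 26 genes, of which PAAF1 and ECM29 were not found by those names and HLA-B had no window. Of the 23 measured, 11 (47.8%) had an IP-side window and 9 (39.1%) an IgG-side one, against 57.1% and 52.9% of all genes, so both shares lay below the background. After normexp background correction 12 of them had an IP-side window, against 33.1% of all genes. The median start value was 0.49, against 0.28 for all genes, and 7 (30.4%) had an IP-side start window, against 24.6%. UBB and RPS27A, which encode ubiquitin, had start values of 1.43 and 0.41. B2M, the light chain of MHC class I, had 0.87 and POMP, a core particle assembly factor named C13orf12 on the array, had 0.84. NFE2L2 and NFE2L1 had 0.66 and 0.53. USP14, a deubiquitinase of the regulatory particle, had 0.02 and SHFM1, a small lid subunit, had -0.01. GATA1 itself had a start value of 0.58, close to the median of the proteasome genes.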

How the data were processed

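The deposited scanner files held the intensity of each spot for both dyes, as the authors' Agilent Feature Extraction 9.5.3.1 had processed it (spatial detrending and linear dye normalization), with its log10 ratio and the p-value of that ratio; the p-value was not used. The deposited series values were log10 ratios equal to those of the scanner files. The array coordinates are printed as deposited, and their genome build is not given in the sources used here. The lowess normalization, error model and peak detection named in the study's methods were not repeated.

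Left out were control spots, outlier spots and those that neither channel measured well above background, which kept 237004 and 236864 probes. In each channel, at least 99.3% of the promoter probes passed that criterion. Windows joined 3 adjacent probes with steps of at most 1000 bp. Genes were taken from the symbol and distance entries of the scanner files. Named genes were those with the 4 highest and 4 lowest start values and windows, and every gene is given at its start. The proteasome genes and the lists were chosen with earlier results of these data known. The number of arrays limits the precision. Python 3.11.15, pandas 2.3.3, R 4.3.3 and limma 3.58.1 were used, and window and call functions were tested on simulated data. 12 alternative settings were run.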

Additional observations from a re-analysis of the deposited data

How the results depend on the processing

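No paired analysis was possible because each probe was read in 1 hybridisation and the arrays hold different probes; leaving out a replicate was not possible for the same reason. IP-side windows were present in 40 proteasome genes with single probes (all genes, 86.1%), 17 with 5-probe windows (34.1%), 10 at 3-fold (20.6%) and 1 at 4 robust SDs (1.51%), against 26. IgG-side windows were present in 14 after normexp background correction (all genes, 23.9%), 37 with single probes (81.1%), 15 with 5-probe windows (33.5%), 12 at 3-fold (22.3%) and 0 at 4 robust SDs (2.11%), against 24. Normexp moved the IP-side count only to 23, but the share of all genes from 57.1% to 33.1%. IP-side start windows were present in 11 with 5-probe windows (all genes, 14.6%), 31 at 1.5-fold (52.1%), 4 at 3-fold (5.72%) and 0 at 4 robust SDs (0.182%), against 18. In the pathway list, the count of 11 became 22 with single probes, 6 with 5-probe windows, 21 at 1.5-fold, 5 at 3-fold and 1 at 4 robust SDs. The median start value was 0.44 after loess on intensity (all genes, 0.26) and 0.39 with the start taken as 1000 bp on each side (0.22), against 0.55. The cause of these changes was not tested, except that thresholds and window sizes change every gene's count by construction. The remaining settings left these values within 1.5 times the count or within 0.048 of the median. The spread between arrays is unknown at each probe, and dim probes carried the highest window at PSMD3 and at PSME1.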
